A study of Mus musculus with 18 samples.

Results

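High laminar shear was compared with static culture in mouse cells homozygous for Tg737orpk (called orpk here), an insertion mutation in Ift88. The comparison used 6 of the 18 libraries of the series, taken by their labels: 3 of orpk cells sheared at 30 dyn/cm2 for 48 h and 3 of orpk cells kept static. Of 21647 genes counted, 13058 had enough reads to test, and all of them were included. The cells are labelled as embryonic aortic endothelial cells. They were kept in medium with a low share of serum and with insulin, transferrin and selenium, brought to confluence in flow slides with a gelatin coat, and deprived of serum for 24 h before flow. How long the static cells were kept is not given in the sources used here. Beside these 2 groups stand orpk cells at 2 dyn/cm2 for 48 h, and wild-type (WT) cells, static or at 30 dyn/cm2 for 48 h, with 3 libraries a group. The WT libraries at 2 dyn/cm2 entered only the shared estimate of the spread. The labels name no separate embryos, isolations or clones, so the p-values measure the spread between libraries, which may be technical, and the genotype cannot be told apart from other differences between the cultures.

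Ift88 is a subunit of the intraflagellar transport complex that carries cargo along the primary cilium, and orpk cells are known for short or missing cilia. In endothelium the cilium bends under flow, and it is one of several flow sensors beside junctional complexes, integrins, ion channels and the glycocalyx. High laminar shear is known in endothelial cells for raising the transcription factors Klf2 and Klf4 and the nitric oxide synthase Nos3. Tension in the actin cytoskeleton is known to act on transcription through the coactivators YAP and TAZ, which bind TEAD factors, and through MRTF and its partner Srf.

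The 6 libraries held 14556970 to 17243680 counts. In a principal component analysis of the 9 orpk libraries, the first component took 68.6% of the variance and placed the libraries in the order static, 2 and 30 dyn/cm2. The second took 24.8% and set the 2 dyn/cm2 libraries (25.6 to 26.5) apart from both static (-15.7 to -15.6) and 30 dyn/cm2 (-11.0 to -9.6). Within a group, libraries differed by 1.501 to 2.21 times the counting error (chi-square per degree of freedom) in the static and 30 dyn/cm2 groups. At 2 dyn/cm2, replicate 2 stood apart from the others (3.28 and 3.66, against 1.55 between replicates 1 and 3). The numbers of genes passing in comparisons with that group are therefore given below also with libraries left out. Counts in gene lists that rest on the group are given also without replicate 2, at least where they changed. For the gene lists this alternative was chosen after seeing the data. The labelled cell type was checked against 19 endothelial markers. Pecam1 had 18 reads over the 3 static libraries and 10 at 30 dyn/cm2, Cdh5 26 and 45, Tie1 2 and 0, and Cldn5, Robo4 and Sox17 had 0 in static cells. The summed level of the list (907 to 932 CPM in static libraries and 1112 to 1119 CPM at 30 dyn/cm2) came mostly from Cd34, Flt1, Mcam and Ets1, which other mesenchymal cells also make. CPM are counts scaled to a common library size, here after TMM normalisation. The 12 fibroblast and mesenchymal markers summed to 41649 to 42442 CPM in static and 32115 to 34137 CPM in sheared orpk libraries, and to 1011 to 1078 CPM in static WT libraries. Other endothelial markers were present at low counts: over the static and the 30 dyn/cm2 libraries Eng had 210 and 276 reads, Vwf 192 and 206, Egfl7 183 and 90, Kdr 133 and 32, Tek 72 and 25 and Erg 57 and 29. In static WT libraries Vwf had 3 reads and Kdr, Erg and Cdh5 had 0. Since the defining markers Pecam1, Cdh5, Tie1 and Cldn5 were at or near 0, the cells are called orpk cells below. WT libraries differed in kind as well, with 1222 to 1451 CPM of 6 kidney epithelial markers (9.06 to 12.6 CPM in static orpk libraries).

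Promoter sequences are shown first for 6 genes, each from a gene list whose members moved together or whose strongest members rose, because they hold the motif that is tied to that list. Each runs from 250 bases before to 50 bases after the annotated start (RefSeq, GRCm38.p6), 5′ to 3′ on the gene's strand, and capitals mark every match to the motif on either strand. Ccn1 (chr3:145649936-145650235, minus strand) holds the TEAD motif GGAATG, Hmgcs1 (chr13:119690101-119690400, plus strand) the sterol regulatory element TCACNCCAC, and Bnip3 (chr7:138909457-138909756, minus strand) the hypoxia response element ACGTG. Ifit1 (chr19:34640639-34640938, plus strand) holds the interferon response element GAAANNGAA, Cdc6 (chr11:98907901-98908200, plus strand) the E2F motif TTTCCCGC, and Srf (chr17:46556113-46556412, minus strand) the CArG box bound by Srf itself.
Ccn1: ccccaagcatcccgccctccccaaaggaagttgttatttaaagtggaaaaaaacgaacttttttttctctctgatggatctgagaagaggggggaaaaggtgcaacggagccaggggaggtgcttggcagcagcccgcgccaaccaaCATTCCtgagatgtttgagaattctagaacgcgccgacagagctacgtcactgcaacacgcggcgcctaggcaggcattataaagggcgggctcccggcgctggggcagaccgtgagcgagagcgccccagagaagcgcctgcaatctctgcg
Hmgcs1: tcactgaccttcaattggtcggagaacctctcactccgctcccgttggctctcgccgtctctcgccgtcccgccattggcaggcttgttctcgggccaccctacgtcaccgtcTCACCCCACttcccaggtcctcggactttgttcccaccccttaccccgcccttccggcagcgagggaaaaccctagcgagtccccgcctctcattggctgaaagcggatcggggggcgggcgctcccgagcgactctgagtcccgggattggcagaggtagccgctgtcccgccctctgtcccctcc
Bnip3: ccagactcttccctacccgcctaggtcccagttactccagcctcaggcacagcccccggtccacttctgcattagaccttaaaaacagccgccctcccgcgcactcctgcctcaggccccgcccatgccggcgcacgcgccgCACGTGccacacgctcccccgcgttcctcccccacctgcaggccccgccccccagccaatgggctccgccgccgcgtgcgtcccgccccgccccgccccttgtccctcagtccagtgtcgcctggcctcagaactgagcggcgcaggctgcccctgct
Ifit1: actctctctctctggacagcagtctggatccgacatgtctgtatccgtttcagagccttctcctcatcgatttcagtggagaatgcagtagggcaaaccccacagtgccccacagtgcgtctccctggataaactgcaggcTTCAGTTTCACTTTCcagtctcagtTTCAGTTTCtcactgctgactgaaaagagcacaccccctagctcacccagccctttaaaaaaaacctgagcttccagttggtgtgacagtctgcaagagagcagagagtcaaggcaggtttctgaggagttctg
Cdc6: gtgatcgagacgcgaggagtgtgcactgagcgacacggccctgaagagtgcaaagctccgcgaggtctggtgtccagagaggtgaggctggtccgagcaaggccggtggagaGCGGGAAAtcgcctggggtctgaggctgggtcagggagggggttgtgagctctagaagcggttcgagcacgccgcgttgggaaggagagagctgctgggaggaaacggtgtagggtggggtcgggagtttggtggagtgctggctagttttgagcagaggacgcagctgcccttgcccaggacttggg
Srf: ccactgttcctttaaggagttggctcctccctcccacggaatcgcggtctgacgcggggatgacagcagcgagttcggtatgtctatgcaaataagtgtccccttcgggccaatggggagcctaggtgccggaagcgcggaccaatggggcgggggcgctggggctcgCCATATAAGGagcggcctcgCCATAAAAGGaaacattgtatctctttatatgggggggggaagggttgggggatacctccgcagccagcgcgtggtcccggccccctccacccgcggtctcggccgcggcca
The capitals in Bnip3 are 2 overlapping matches, 1 on each strand, and those in Ifit1 are 3 matches of which 2 overlap. A promoter entry was found for 10269 of the tested genes. Among the YAP/TAZ targets, 10 of 22 promoters (45.5%) held the TEAD motif, beside 14.6% of all promoters. Of the sterol synthesis promoters, 1 of 15 (6.7%) held the sterol element, beside 1.44%. The hypoxia element was in 12 of 21 promoters (57.1%) of the hypoxia list and in 14 of 21 (66.7%) of the glycolysis list, beside 28.9%. The interferon element was in 15 of 23 promoters (65.2%) of interferon-stimulated genes, beside 8.55%. The E2F motif was in 5 of 24 promoters (20.8%) of replication genes, beside 2.32%, and the CArG box in 6 of 26 (23.1%) of contractile genes, beside 1.65%. A match describes the letters of this window and says nothing of binding.

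At 30 dyn/cm2, 9123 of the 13058 genes (69.9%) passed the threshold against static culture, by edgeR's quasi-likelihood test at a Benjamini-Hochberg adjusted p of 0.05. Higher were 4769 genes (36.5%) and lower 4354 (33.3%). With another scaling (relative log expression, RLE) these were 4338 and 4702, so which direction held more genes depended on the scaling. Large decreases outnumbered large increases: 1220 genes (9.34%) fell by more than 1 on the log2 scale and 648 (4.96%) rose by more than 1. The 10th percentile of the log2 fold change was -1.03, the 90th percentile 0.73 and the median 0.02. In 9568 genes (73.3%) the values of the groups did not overlap. With so many genes past the threshold, passing it sets few genes apart. Changes given below without "times" are on the log2 scale. In each group of genes below, fewer cells of a type and less RNA per cell cannot be told apart.

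Among the genes with the largest increases were secreted and matrix-associated proteins and proteins of the contractile apparatus. C1qtnf3, a secreted protein of the C1q and TNF family, held 35.3, 39.7 and 44.4 CPM in the static libraries and 1096, 1082 and 1148 CPM at 30 dyn/cm2. Anxa8, a calcium-dependent membrane-binding annexin, held 12.2, 13.8 and 18.1 CPM in static cells and 323, 321 and 332 CPM under shear. Pmepa1, an inhibitor of TGF-beta signalling that TGF-beta itself induces, held 62.9, 68.1 and 62.5 CPM and then 625, 624 and 626 CPM. In all 3 the sheared libraries lay far above the static ones, by 27.9, 22.2 and 9.67 times, with log2 fold changes of 4.80 ± 0.11, 4.48 ± 0.06 and 3.27 ± 0.06 (± SE throughout). Other genes rose from low static levels, some of them near the limit of detection. Acta1, skeletal alpha-actin, went from 0.713, 0.904 and 1.17 to 23.3, 21 and 20.2 CPM, and Tnnt2, cardiac troponin T, from 2.78, 2.20 and 2.34 to 24.7, 27.4 and 26.6 CPM. Col4a3, a chain of basement membrane collagen, rose by 3.96, Pi16, a peptidase inhibitor made by adventitial fibroblasts, by 4.70, and Slurp1, a secreted Ly6 protein, by 3.63 on the log2 scale. Prg4, the lubricant lubricin, rose by 5.27. Ctsw, a cathepsin, rose by 5.87 to 31.6 CPM. Its gene overlaps Fibp on the other strand, which stayed at 43.1 CPM static and 43 CPM at 30 dyn/cm2. Prg4 and Slurp1 overlap Tpr and Them6 in the same way, and whether counting used the strand is not given in the sources used here.

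Among the genes with the largest decreases were a pair of vasoactive peptides, hormone receptors and immune mediators. Apln, the peptide ligand of the apelin receptor, held 137, 133 and 133 CPM in static cells and 2.70, 3.14 and 3.49 CPM under shear, and Adm, the vasodilator adrenomedullin (both also on the hypoxia list), held 36.9, 34.4 and 37.9 CPM and 0.225, 0.0714 and 0.0775 CPM. Agtr2, the second angiotensin receptor, had 635 reads over the static libraries and 2 over the sheared ones, a ratio of 296 (81.6 to 2450, exact 95% interval of the counts, which covers counting error only). In these 3 genes the sheared libraries lay far below the static ones, with no overlap. Pappa2, a protease of IGF-binding proteins, held 131, 128 and 134 CPM in static cells and 2.47, 2.50 and 2.33 CPM under shear. Gipr, a gut hormone receptor, fell by 47.7 times from 17 CPM, and Dhrs3, which reduces retinal, by 46.1 times from 11.8 CPM. The alarmin Il33 and the chemokine Ccl5 went from 11.4 to 0.402 CPM and from 29.2 to 0.965 CPM, and Sprr1a, a cornified envelope protein, from 11.4 to 0.472 CPM. Gbp9, an interferon-induced GTPase whose gene overlaps Gbp4 and Gbp8, held 127, 141 and 142 CPM and then 5.39, 6.0 and 4.73 CPM. The plot of level against change places these genes among all tested genes.

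**Figure D1:**
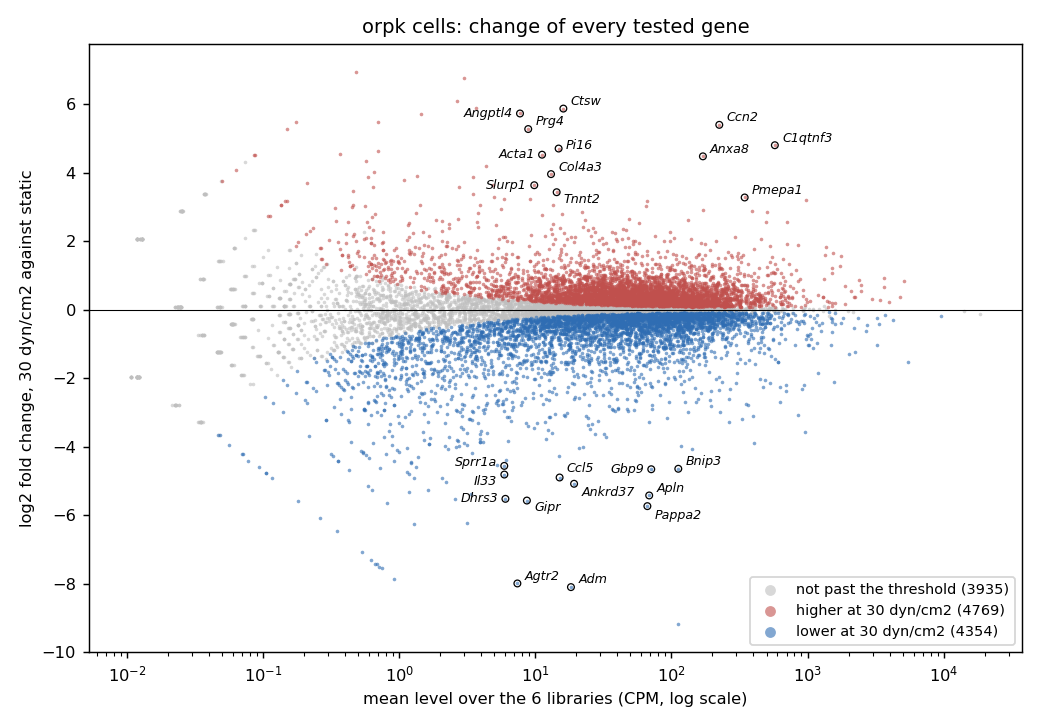
Each point is 1 tested gene: its mean level over the 6 orpk libraries (CPM, log axis) and its log2 fold change at 30 dyn/cm2 against static, red and blue where the adjusted p was below 0.05. Circled are the 12 highest and 12 lowest named genes, from Ctsw at 5.87 to Adm at -8.10; more points lie below -1 (1220) than above 1 (648).

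In most of the gene lists, members moved in both directions. Counts of members at 30 dyn/cm2 against static stand beside 36.5% higher and 33.3% lower over all tested genes. The plot of 17 lists shows those with nearly all members on 1 side: sterol synthesis, replication and the ATF4 response were higher, and hypoxia, glycolysis and interferon-stimulated genes were lower.

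**Figure D2:**
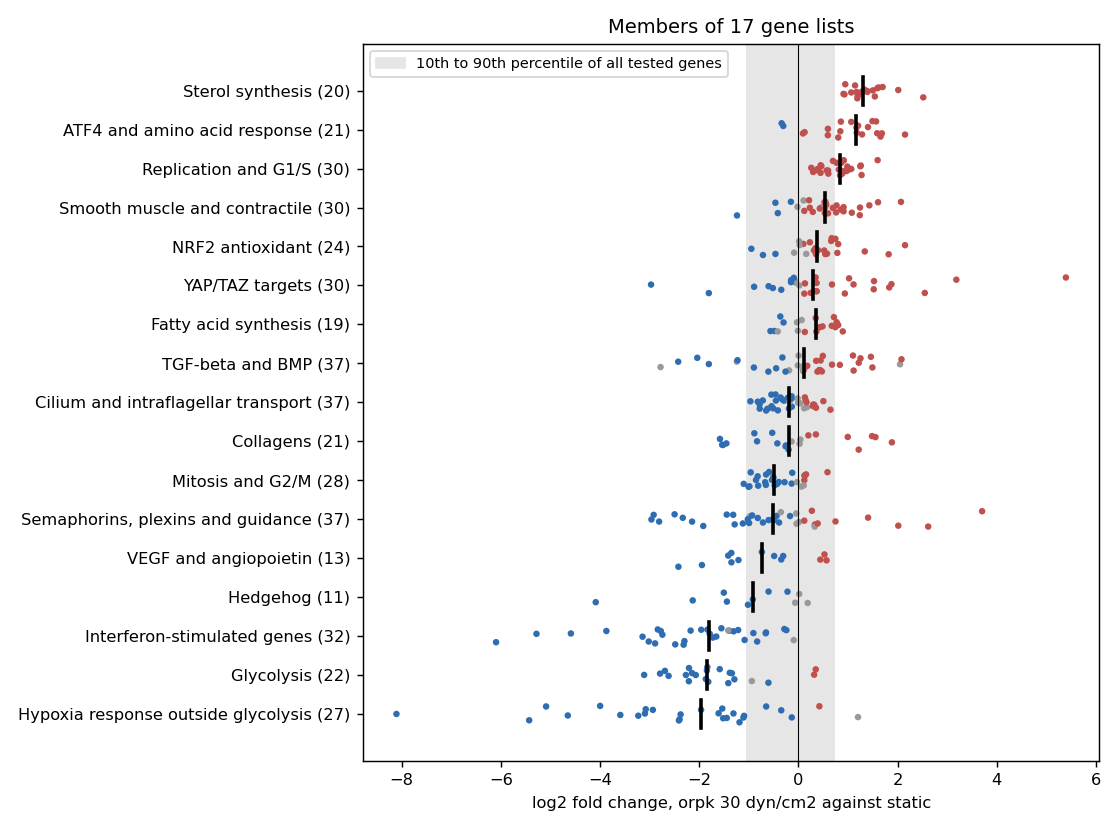
Each point is a member of a gene list, placed by its log2 fold change in orpk cells at 30 dyn/cm2 against static (red higher, blue lower, grey not past the threshold), with the list's median as a black bar and the number of tested members in brackets. The grey band holds the 10th to 90th percentile of all tested genes (-1.03 to 0.73); the medians run from 1.31 for sterol synthesis to -1.96 for the hypoxia response.

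Genes of cholesterol synthesis rose together. All 20 tested members of the sterol synthesis list were higher at 30 dyn/cm2 than in static culture (background 36.5%), with a median log2 fold change of 1.31, beside 0.02 over all tested genes. Hmgcs1, which makes the precursor of mevalonate, held 249.95, 258 and 274 CPM in static cells and 535, 552 and 551 CPM under shear, a log2 fold change of 1.07 ± 0.04 (adjusted p = 4.45e-27, edgeR). Tm7sf2, a sterol reductase, rose the most, from 16, 19.2 and 16 CPM to 96.7, 98.7 and 99.3 CPM. The libraries of the groups did not overlap in either gene. The mevalonate kinase Mvk rose by 1.14 ± 0.05, the farnesyl diphosphate synthase Fdps by 1.503 ± 0.04, the squalene epoxidase Sqle by 1.20 ± 0.03, and the lanosterol demethylase Cyp51 by 1.62 ± 0.04. The smallest increase, of the squalene synthase Fdft1, was 0.91 ± 0.04, above the 90th percentile of all genes. At 2 dyn/cm2, 19 of the 20 were already higher than in static cells (background 30.9% higher and 31.1% lower), with a median of 0.48, and all 20 were higher at 30 than at 2 dyn/cm2 (background 32.1% higher and 31.5% lower), with a median of 0.89. These comparisons share libraries with the main one, and their counts were the same without replicate 2 at 2 dyn/cm2 (medians 0.46 and 0.88).

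The list of sterol regulation, uptake and efflux was mixed: of its 18 tested members 7 rose, 8 fell and 3 did not pass. Insig1, which holds back the SREBP factors of sterol synthesis when sterols are plentiful, went from 102, 105 and 98.3 CPM to 243, 248 and 240.0 CPM, a log2 fold change of 1.26 ± 0.04, and the transfer protein Stard4 rose by 1.06 ± 0.04. The cholesterol exporter Abca1 held 749, 747 and 757 CPM in static cells, 188, 181 and 188 CPM at 2 dyn/cm2 and 48.7, 51.8 and 52 CPM at 30 dyn/cm2. The 3 groups did not overlap, and the log2 fold change at 30 dyn/cm2 was -3.88 ± 0.05. Abcg1, another exporter, fell by 6.91 times from 5.23 CPM, and Mylip, a ubiquitin ligase, fell by 0.94. Insig2, a relative of Insig1, fell by 1.13. Fatty acid synthesis moved less, with 11 of 19 members higher and 4 lower and a median of 0.35. Acly, which makes cytosolic acetyl-CoA, rose by 0.90 ± 0.03 and the desaturase Scd1 by 0.77 ± 0.03, whereas the synthase Fasn held 1096 and 1076 CPM and did not pass (adjusted p = 0.647, edgeR).

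Genes of amino acid supply that are driven by Atf4, a factor made when translation is slowed by stress, mostly rose at 30 dyn/cm2, while at 2 dyn/cm2 more of them fell than rose. Of 21 members, 19 were higher and 2 lower at 30 dyn/cm2, with a median of 1.17. The cystine transporter Slc7a11 held 27.9, 25.8 and 29.2 CPM in static cells, 22, 24 and 19.2 CPM at 2 dyn/cm2 and 116, 122 and 129.6 CPM at 30 dyn/cm2. The asparagine synthetase Asns held 163, 170.0 and 169 CPM, 171, 166 and 166 CPM and 501, 497 and 513 CPM. In both genes the sheared libraries at 30 dyn/cm2 lay above all others. Atf4 itself rose by 1.07 ± 0.04, the serine synthesis enzymes Psph by 1.57 ± 0.06 and Shmt2 by 1.17 ± 0.04, the cationic amino acid transporter Slc7a1 by 1.66 ± 0.04 and the cystathionine lyase Cth by 1.68 ± 0.10. At 2 dyn/cm2 the same list had 3 members higher and 12 lower than in static cells (median -0.28, and -0.35 with the same counts without replicate 2), and 20 of 21 were higher at 30 than at 2 dyn/cm2. The exceptions at 30 dyn/cm2 against static were Ddit3, which codes for the stress factor CHOP and fell by 0.30, and the lipoprotein receptor Vldlr, which fell by 0.34. Chaperones of the endoplasmic reticulum moved less, with 13 of 19 higher, 2 lower and a median of 0.25.

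Genes induced by hypoxia and enzymes of glycolysis fell together. Of 27 hypoxia response genes outside glycolysis, 25 were lower and 1 higher (background 33.3% lower), with a median of -1.96, and of 22 glycolysis genes 19 were lower and 2 higher, with a median of -1.84. The exceptions were Stc2 (0.42 ± 0.08) among the former and Pfkfb4 and the lactate transporter Slc16a1 (0.32 ± 0.07 and 0.35 ± 0.05) among the latter. Bnip3, a mitophagy receptor, held 214, 214 and 219.9 CPM in static cells, 59.1, 68.1 and 62.6 CPM at 2 dyn/cm2 and 9.21, 9.07 and 7.44 CPM at 30 dyn/cm2, a log2 fold change of -4.65 ± 0.07 between the ends (adjusted p = 7.59e-37, edgeR). Pdk1, the kinase that closes pyruvate dehydrogenase, fell by 16 times, from 210.4, 214 and 236 CPM to 13.7, 14 and 13.6 CPM. Each library of a sheared group lay below each static library in both genes. Egln3, an oxygen-sensing hydroxylase, fell by 8.54 times, and the transcript of the oxygen-labile factor Hif1a by 2.16 times. Ankrd37, whose gene overlaps Lrp2bp and Ufsp2 on the other strand, went from 37.4 to 1.09 CPM. Of the glycolytic enzymes, Eno2 fell by 8.63 times, Pgk1 by 6.91 times, Ldha by 4.61 times and Pfkl by 6.13 times. The glucose transporter Slc2a1 held 1050.4, 1012 and 1028 CPM, 167, 185 and 181 CPM and 218, 208 and 216 CPM over the 3 shears, and was lower at 2 than at 30 dyn/cm2.

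The growth factor Vegfa, also a hypoxia target, went another way. It held 371, 383 and 360.3 CPM in static cells, 96.8, 97.5 and 100.4 CPM at 2 dyn/cm2 and 284, 296 and 297 CPM at 30 dyn/cm2. It was lowest at 2 dyn/cm2, and its log2 fold change was -0.34 ± 0.03 between 30 dyn/cm2 and static but 1.57 ± 0.04 between 30 and 2 dyn/cm2. Of the 27 hypoxia genes, 26 were lower at 2 dyn/cm2 than in static cells with a median of -1.49 (-1.58 without replicate 2), and at 30 against 2 dyn/cm2 15 were lower and 6 higher, counts that were the same without that replicate. Glycolysis had 20 of 22 members lower at 2 dyn/cm2, and 17 lower and 5 higher at 30 against 2 dyn/cm2. Nuclear genes of oxidative phosphorylation had a median of -0.05, with 7 of 39 higher and 15 lower. Angptl4, a secreted inhibitor of lipoprotein lipase that fatty acids induce through PPAR receptors, rose from 0.280 to 22 CPM at 2 dyn/cm2 and 15.2 CPM at 30 dyn/cm2. Cpt1a, which admits fatty acids to mitochondria, rose by 1.07 ± 0.04, and the coactivator Ppargc1a fell by 10.4 times, from 45.4, 45.3 and 42.2 CPM to 4.27, 4.14 and 4.34 CPM.

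Targets of YAP and TAZ held some of the largest increases of the comparison, but the list as a whole was mixed. Of 30 members, 18 rose and 9 fell (median 0.30). Ccn2 (chr10:24595442-24598683, GRCm38, plus strand), a matricellular protein also called CTGF, held 10.3, 12.7 and 8.05 CPM in static cells, 53, 47.5 and 60.9 CPM at 2 dyn/cm2 and 449.8, 433 and 433 CPM at 30 dyn/cm2, 42.1 times the static level. Its relative Ccn1, whose promoter is shown above, held 146, 143 and 146 CPM, 383, 359.8 and 407 CPM and 857, 851 and 840.5 CPM. Both rose at each step of shear, with no overlap between groups. Thbs1, Nuak2 and Ankrd1 rose by 1.83 ± 0.04, 1.88 ± 0.08 and 1.02 ± 0.04. Igfbp3, an IGF-binding protein, and the ligand Tgfb2 are on the same list and fell by 7.84 and 3.49 times. Of the factors themselves, Tead4 rose from 5.92, 5.43 and 5.56 to 26.7, 26.3 and 26.9 CPM, Yap1 fell by 0.34, and Wwtr1, which codes for TAZ, rose by 0.13 ± 0.04.

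Most contractile genes rose. Of 30 members of the smooth muscle and contractile list, 23 were higher than in static cells and 4 lower (median 0.54). Tagln, an actin-binding protein of smooth muscle, held 179, 183 and 164 CPM in static cells, 261, 309 and 277 CPM at 2 dyn/cm2 and 787, 704 and 719 CPM at 30 dyn/cm2, and the change was 2.07 ± 0.06 on the log2 scale. Acta2, smooth muscle alpha-actin, held 666, 696 and 615 CPM, 1021, 1205 and 1085 CPM and 2082, 1970.0 and 1969.9 CPM. The groups did not overlap in either gene. Srf held 56.2, 54.5 and 54 CPM, 149.6, 129 and 155 CPM and 136, 123 and 129 CPM, and its libraries at 2 and 30 dyn/cm2 overlapped. Myosin light chain Myl9 rose by 1.24 ± 0.05, Actn1 by 1.08 ± 0.03, the filamin Flna by 0.91 ± 0.05 and non-muscle myosin Myh9 by 0.86 ± 0.03, whereas the kinase Mylk, the intermediate filament Des, the coactivator Mrtfb and Smtn fell by 1.24, 0.46, 0.41 and 0.15. The summed level of 10 smooth muscle and pericyte markers, several of them on the contractile list too, lay between 1352 and 1468 CPM in static libraries and between 3715 and 3829 CPM at 30 dyn/cm2. The rise came from Acta2, Tagln, Cspg4 (5329 reads in static and 35863 in sheared cells) and Cnn1 (1239 and 2172). The other markers had fewer reads under shear: Notch3 (17270 and 2038), Mylk (1014 and 401), Des (250 and 169), Rgs5 (6 and 4), Myh11 and Myocd. Of the markers that define smooth muscle, Myh11 had 23 reads in static and 9 in sheared cells and Myocd 15 and 7. The part of other cells in the contractile result was not tested.

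The cell cycle genes went in 2 directions. All 30 genes of replication and the G1/S transition were higher at 30 dyn/cm2 than in static cells, with a median of 0.84. Genes of mitosis were mostly lower: 20 of 28 fell and 5 rose, with a median of -0.49, and the 5 became 2 with RLE scaling and 1 with DESeq2. The 5 were Mad2l1 (0.59 ± 0.05), Cdk1, Ccna2, Bub1 and Birc5, of which the last 4 rose by 0.12 to 0.16. Rrm2, a subunit of ribonucleotide reductase, held 54.3, 53.2 and 52.1 CPM in static cells, 231, 234 and 253 CPM at 2 dyn/cm2 and 165, 157 and 161 CPM at 30 dyn/cm2. Cdc6, which loads the replicative helicase, held 21.8, 19.8 and 17.9 CPM, 76.7, 75.4 and 81.9 CPM and 50.5, 45.7 and 46.2 CPM. Both were highest at 2 dyn/cm2, and both were above the static level at 30 dyn/cm2, by 1.60 ± 0.04 and 1.26 ± 0.07. The helicase subunit Mcm6 rose by 1.07 ± 0.04, the cyclin Ccne2 by 1.25 ± 0.07 and the sliding clamp Pcna by 0.99 ± 0.05. Among the mitotic genes, the proliferation marker Mki67 held 290.3, 285 and 264 CPM, 459.5, 486 and 471 CPM and 211, 194 and 186 CPM, and the spindle checkpoint kinase Bub1b held 128, 118 and 109.7 CPM, 101, 108 and 101 CPM and 60.2, 50.5 and 55 CPM. Mki67 was thus highest at 2 and lowest at 30 dyn/cm2, and Bub1b was lowest at 30 dyn/cm2. Top2a, the topoisomerase of dividing cells, had group means of 479 CPM in static cells, 911 CPM at 2 dyn/cm2 and 470.1 CPM at 30 dyn/cm2. It did not pass between 30 dyn/cm2 and static (adjusted p = 0.535, edgeR). At 2 dyn/cm2, 29 replication genes were higher and 0 lower than in static cells (median 1.28), and 21 mitosis genes were higher and 4 lower (19 and 5 without replicate 2). From 2 to 30 dyn/cm2, 28 of 30 replication genes and 28 of 28 mitosis genes were lower (28 and 27 without replicate 2). Of 12 cyclin-dependent kinase inhibitors, D cyclins and their kinases, 8 were lower at 30 dyn/cm2 than in static cells, 1 was higher (Cdk6, 0.21 ± 0.05) and 3 did not pass. The inhibitor Cdkn1b went from 189.8, 188 and 211 to 63, 61.5 and 59.8 CPM, and Cdkn1a from 59.1, 55.4 and 57.1 to 20.1, 22.3 and 21.5 CPM.

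**Figure D3:**
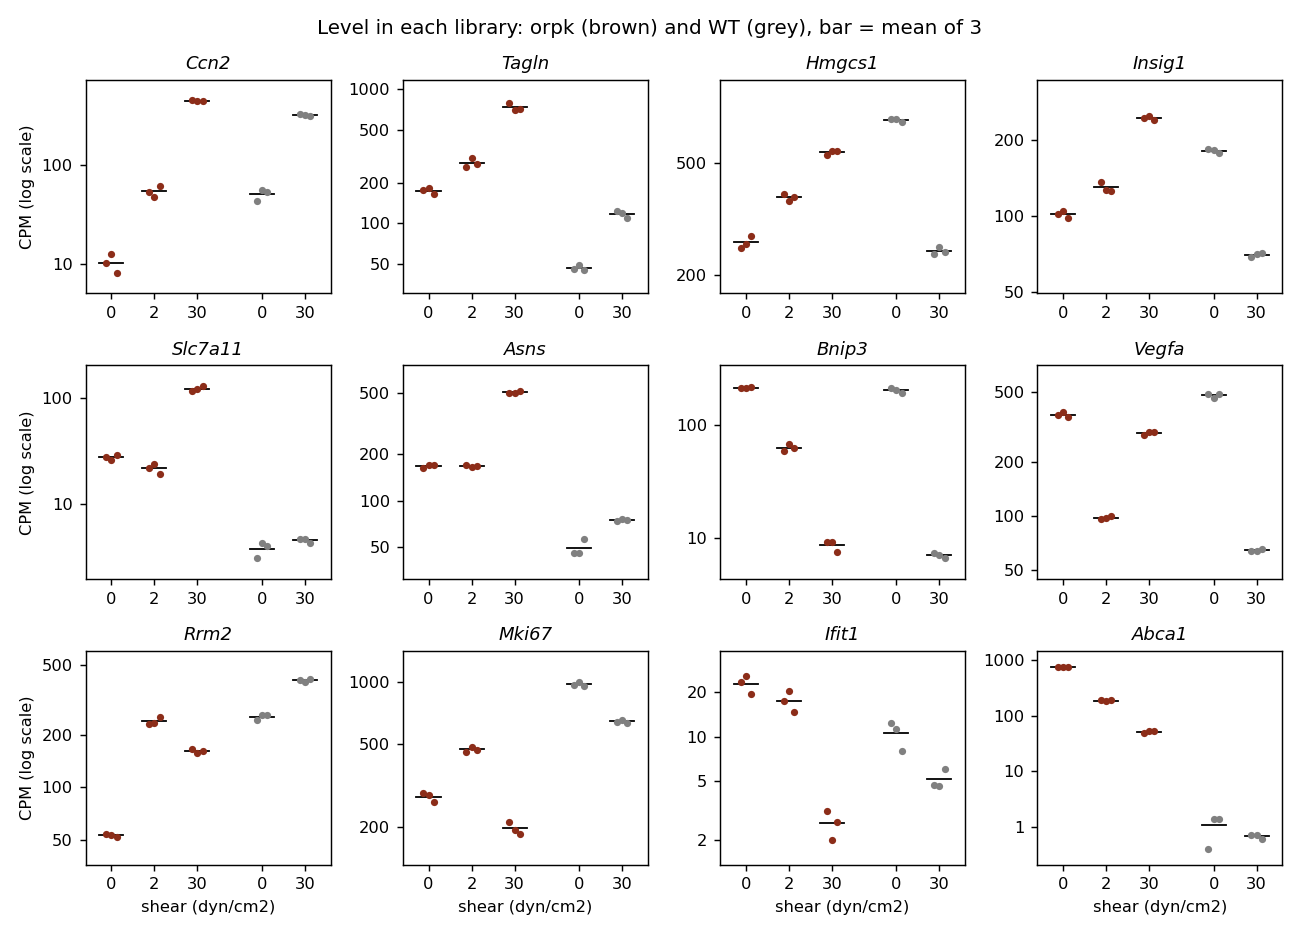
Level of 12 genes in every library (CPM, log axes that differ between panels) for orpk cells at 0 (static), 2 and 30 dyn/cm2 in brown and WT cells at 0 and 30 dyn/cm2 in grey, with a bar at the mean of 3. Ccn2 rises from 10.3 to 439 CPM over the orpk groups, Vegfa and Mki67 turn at 2 dyn/cm2, and Hmgcs1 and Insig1 rise in orpk and fall in WT cells.

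Interferon-stimulated genes were lower at 30 dyn/cm2. Of 32 tested members, 30 fell and 0 rose, with a median of -1.81. Ifit1, which binds viral RNA caps, held 23.2, 25.6 and 19.5 CPM in static cells, 17.5, 20.2 and 14.7 CPM at 2 dyn/cm2 and 3.15, 2.0 and 2.64 CPM at 30 dyn/cm2, a log2 fold change of -3.14 ± 0.20 (adjusted p = 4.58e-11, edgeR). Gbp2, a GTPase that acts on pathogen vacuoles, held 42.6, 44.2 and 42.2 CPM, 38.5, 43.3 and 36.5 CPM and 6.07, 7.0 and 5.74 CPM. In both the libraries at 30 dyn/cm2 lay below all others, while those at 2 dyn/cm2 overlapped the static ones. Isg15, a ubiquitin-like modifier, fell by 4.91 times and the receptor Ifih1 by 3.89 times. Mx1 had 138 reads in static and 3 in sheared libraries, a ratio of 42.9 (14.4 to 211, exact 95% interval), and Oas2 had 23 and 0, which is at least 7.15-fold lower when the 3 sheared libraries together are set at 3 reads. Ifit2 held 40.7 and 38.1 CPM and did not pass (adjusted p = 0.152, edgeR), nor did Irf7 at 0.279 and 0.102 CPM. At 2 dyn/cm2, 18 members were lower and 4 higher than in static cells (19 and 4 without replicate 2), and from 2 to 30 dyn/cm2 27 were lower and 0 higher. Class I antigen presentation fell with them, with 8 of 10 members lower and 0 higher. The immunoproteasome subunit Psmb8 went from 32.2, 30.5 and 33.6 to 8.91, 8.93 and 8.22 CPM and the peptide transporter Tap1 from 42.2, 43.4 and 44.1 to 19.4, 18.6 and 20.9 CPM. The summed levels of 8 leukocyte markers were 16.6 to 18.3 CPM in static libraries and 8.76 to 9.93 CPM at 30 dyn/cm2. The fall came mostly from Cd68 (377 reads in static and 176 in sheared libraries) and Csf1r (220 and 54). Lyz2 did not fall (140 and 145), and Ptprc had 3 and 0 reads. The part of leukocytes in the interferon result was not tested.

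Matrix genes moved in both directions. Of 21 collagens 7 rose and 11 fell, and of 31 matrix glycoproteins 12 rose and 13 fell. The basement membrane chains Col4a1 and Col4a2 rose, Col4a1 from 903, 891 and 869 CPM to 2583, 2616 and 2628 CPM, while Col3a1 of interstitial matrix went from 7975, 8145 and 8345 CPM to 2799, 2725 and 3004 CPM. The log2 fold changes were 1.56 ± 0.03 and -1.52 ± 0.06, and the groups did not overlap. Col1a2, a chain of type I collagen, held 19314 and 17575 CPM and did not pass (adjusted p = 0.199, edgeR). Of the glycoproteins, the basement membrane linker Nid2 fell from 614, 657 and 629 CPM to 95.2, 91.9 and 89.9 CPM, and tenascin Tnc and periostin Postn rose by 1.86 ± 0.08 and 1.27 ± 0.05. The collagen-modifying enzymes Plod1 and Plod2 fell by 5.03 and 4.04 times and P4ha2 by 5.19 times. Of 28 proteases and inhibitors, 19 fell and 7 rose. Mmp2 and Mmp14, which open the matrix around fibroblasts, fell by 1.03 and 0.66, and Mmp19 by 5.58 times. Hs3st1, a heparan sulfate sulfotransferase, fell by 7.62 times from 7.25 CPM, and the hyaluronan synthase Has2 and the glypican Gpc1 rose by 1.32 ± 0.05 and 1.68 ± 0.04.

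Integrins, which anchor cells to that matrix, were split 7 to 7 among 17 tested members. Itgb3, the chain that pairs with Itgav in the vitronectin receptor, held 13.5, 12.9 and 12.8 CPM in static cells, 30.4, 26.5 and 28.5 CPM at 2 dyn/cm2 and 118, 119 and 118 CPM at 30 dyn/cm2. All libraries of a group lay above those of the lower shear, and the log2 fold change was 3.18 ± 0.06. Itgb5 rose by 1.91 ± 0.03, Itgb1 by 1.08 ± 0.03 and Itga5 by 0.79 ± 0.03, whereas Itga8, which binds nephronectin, fell by 5.65 times from 5.94 CPM, and Itgb8 by 3.48 times.

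The PDGF receptor of fibroblasts fell while a PDGF ligand rose. The receptor Pdgfra held 1775, 1756 and 1793 CPM in static cells, 536, 589 and 491 CPM at 2 dyn/cm2 and 148, 144 and 154 CPM at 30 dyn/cm2. The ligand Pdgfb held 1.71, 1.94 and 1.61 CPM in static cells and 18.5, 16.9 and 13.8 CPM at 30 dyn/cm2. The static and sheared groups overlapped in neither gene, and the log2 fold changes were -3.58 ± 0.05 and 3.22 ± 0.14. The receptor Pdgfrb rose by 0.21 ± 0.03. Fgf2, basic fibroblast growth factor, went from 5.71, 7.56 and 6.37 to 37.6, 40.8 and 41.5 CPM, and Fgf7 and its receptor Fgfr2 fell by 2.62 and 2.20 times. In the TGF-beta and BMP list 18 of 37 members rose and 9 fell (background 36.5% higher and 33.3% lower). The share of this list that passed, 73.0%, was near the 69.9% of all tested genes. The ligands Tgfb3 and Inhba rose by 1.46 ± 0.05 and 1.49 ± 0.05 and the latent binding protein Ltbp2 by 2.08 ± 0.09, the co-receptor Tgfbr3 fell by 4.11 times and the BMP target Id2 by 5.36 times.

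Receptors and targets of Hedgehog signalling, which in mammals runs through the cilium, fell. No ligand (Shh, Ihh, Dhh) had enough reads to test. Of 11 tested members, 8 fell and 0 rose, with a median of -0.92. The co-receptor Gas1 held 289, 256 and 261 CPM in static cells, 128, 144 and 126 CPM at 2 dyn/cm2 and 15.1, 14.8 and 17.7 CPM at 30 dyn/cm2, a log2 fold change of -4.09 ± 0.06. The other co-receptors Cdon and Boc fell by 2.83 and 2.71 times. The receptor Ptch1 and the factor Gli1, both also targets of the pathway, held 47.9, 48.1 and 49.4 and 9.41, 8.66 and 8.05 CPM in static cells and 22.7, 26.9 and 27.2 and 6.22, 5.29 and 5.74 CPM at 30 dyn/cm2. Both fell, by 0.92 and 0.60, whereas the transducer Smo held 215 and 217 CPM and did not pass (adjusted p = 0.668, edgeR).

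Notch, Wnt and guidance genes changed member by member. Notch3, the receptor of mural cells, held 407, 403 and 390.2 CPM in static cells, 159, 185 and 150.3 CPM at 2 dyn/cm2 and 51.2, 49.4 and 51.4 CPM at 30 dyn/cm2, and the ligand Jag1 held 66.7, 74.3 and 79.5 CPM, 134, 141 and 133 CPM and 272, 275 and 281 CPM. Receptor and ligand thus moved oppositely at each step, with log2 fold changes of -2.98 ± 0.06 and 1.91 ± 0.05 at 30 dyn/cm2. The target Hes1 rose by 1.25 ± 0.08. In the Wnt list 4 of 27 rose and 13 fell, so that 63.0% passed beside 69.9% of all tested genes. The secreted antagonist Sfrp2 was 23.4 times lower, the agonist Rspo3 7.59 times lower and the ligand Wnt9a 5.66 times higher. Of 37 semaphorins, plexins and other guidance genes, 22 fell and 9 rose, with Sema3d, Sema6a and Unc5c lower by 7.0, 5.64 and 7.80 times and Unc5b higher by 6.14 times. In the VEGF and angiopoietin list 10 of 13 fell, among them Vegfd by 1.35 and Angpt1 by 1.21. Of the IGF-binding proteins, Igfbp4 fell from 59.6 to 12.3 CPM and Igfbp7 rose from 185 to 625 CPM.

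The genes best known for the response of endothelium to laminar shear moved in both directions, with 14 of 24 higher and 7 lower. Klf2 held 31, 26.7 and 26.7 CPM in static cells, 6.15, 9.62 and 7.24 CPM at 2 dyn/cm2 and 15.3, 16 and 16.8 CPM at 30 dyn/cm2. It was lowest at 2 dyn/cm2, with a log2 fold change of -0.81 ± 0.10 at 30 dyn/cm2 against static and 1.05 ± 0.12 against 2 dyn/cm2. Klf4 held 137, 136 and 126 CPM, 89.4, 97.1 and 83.5 CPM and 258, 262 and 251 CPM, with the same low point and a higher end (log2 fold change 0.94 ± 0.05). Nos3 was near 0, with 15 and 6 reads over the groups and a log2 fold change of -1.18 ± 0.66 (adjusted p = 0.108, edgeR). Without replicate 1 at 30 dyn/cm2 it passed, at -2.11 with an adjusted p of 0.0298. Pecam1 did not pass either (-0.73 ± 0.58, adjusted p = 0.263). Edn1, the vasoconstrictor endothelin that laminar shear lowers in endothelium, went from 4.28, 4.20 and 5.27 to 10.9, 10.5 and 9.69 CPM, a rise of 1.18 ± 0.13. The leukocyte adhesion molecule Vcam1 held 191, 194 and 213 CPM in static cells and 90.5, 86.5 and 92.6 CPM at 30 dyn/cm2. Ptgs2, the inducible cyclooxygenase, held 104, 85.3 and 90.1 CPM in static cells and 695, 681 and 681 CPM at 30 dyn/cm2, with a level at 2 dyn/cm2 (98.8, 82 and 99.9 CPM) that overlapped static cells. Txnip, an inhibitor of thioredoxin, held 160.2, 162 and 177 CPM, 326, 399 and 307 CPM and 19.9, 17.1 and 19 CPM, so that it rose at the low and fell at the high shear.

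Most xenobiotic and antioxidant genes rose. Of 7 genes of the aryl hydrocarbon receptor list 5 rose and 2 fell, the latter being Arnt and Tiparp. Cyp1a1, the classic target of the aryl hydrocarbon receptor, had 1 read over the static and 29 over the sheared libraries, a ratio of 31.1 (5.16 to 1270, exact 95% interval), and Cyp1b1 rose from 409.6, 422 and 429.6 to 1039, 1019 and 1092 CPM. Nqo1, a target of that receptor and of NRF2, went from 23, 19.1 and 17.8 to 68.5, 67.4 and 75.8 CPM. Of 24 NRF2 targets, 17 rose and 3 fell, with a median of 0.38; Gclm, of glutathione synthesis, rose by 1.34 ± 0.05, while Gstm1, Gsta4 and G6pdx fell by 0.95, 0.71 and 0.46.

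Genes of the cilium changed by less than 1 on the log2 scale in either direction. Ift88 (chr14:57424062-57517936, GRCm38, plus strand) held 7.49, 8.46 and 7.47 CPM in static orpk cells and 6.37, 7.36 and 6.98 CPM at 30 dyn/cm2. The groups did not overlap, but the difference of -0.18 ± 0.12 did not pass (adjusted p = 0.189, edgeR). The gene shares its span with 2 annotated genes on the other strand. Of 37 genes of the cilium and of intraflagellar transport, 21 fell and 9 rose, with a median of -0.18. The motor Dync2h1, which returns cargo from the tip, went from 37.3, 42.2 and 39.7 to 19.9, 22.1 and 19 CPM and had the largest change, -0.97 ± 0.08. Ift80 and Ift122 fell by 0.82 and 0.78, and Ift57 rose by 0.65 ± 0.07. Of the flow-sensing proteins, the polycystin gene Pkd1 rose by 0.84 ± 0.07 and its partner Pkd2 fell by 0.28, the stretch-gated channel Piezo1 rose by 0.83 ± 0.05, and the potassium channels Kcnj2 and Kcnk2 fell by 3.49 and 2.56 times.

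Low and high shear were then set side by side. Between 30 and 2 dyn/cm2, 8306 genes (63.6%) passed (7755 to 7922 with 1 library of either group left out), and the values of 68.2% of genes did not overlap. Between 2 dyn/cm2 and static culture 8090 (62%) passed (7506 to 7764 with 1 library of either group left out). Without replicate 2 at 2 dyn/cm2 the count was 7764. With library totals in place of the TMM scaling, the genes higher and lower at 30 against 2 dyn/cm2 went from 4190 and 4116 to 2916 and 5551, and those at 2 dyn/cm2 against static from 4030 and 4060 to 5372 and 2982. That scaling moved the median of all genes from -0.01 to -0.12 between 30 and 2 dyn/cm2. Among the largest upward steps from 2 to 30 dyn/cm2 were those of Ctsw (4.97), Anxa8 (4.24), Pi16 (4.16), and Prg4 and Slurp1 (both 3.69). Among the largest downward steps were those of Txnip (-4.21), Apln (-3.87), Lrrn3 (-3.77), Gbp4 (-3.44) and Gbp9 (-3.37). The list of PPAR targets and fatty acid oxidation had 14 of 23 members higher and 5 lower at 2 dyn/cm2 than in static cells (13 and 5 without replicate 2). From 2 to 30 dyn/cm2, 16 of them fell and 0 rose (14 and 0 without it). The plot of list medians sets the 2 shears side by side.

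**Figure D4:**
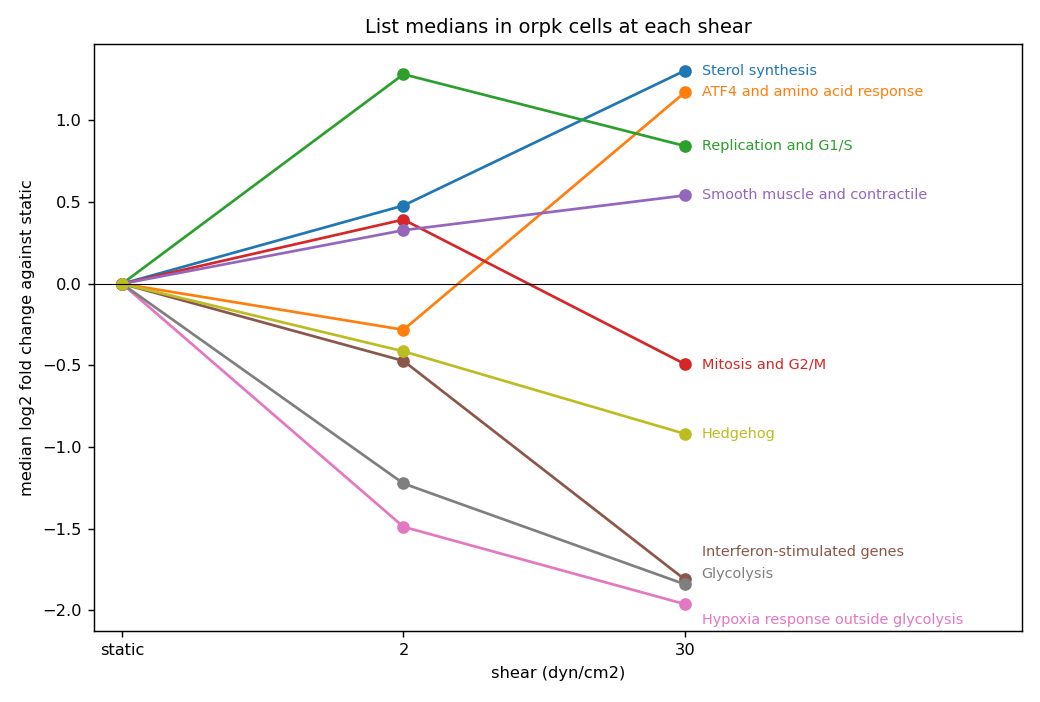
Median log2 fold change against static (set at 0) of 9 gene lists in orpk cells at 2 and 30 dyn/cm2; both medians of a list use the same static libraries. Replication peaks at 2 dyn/cm2 (1.28, then 0.84), mitosis turns from 0.39 to -0.49, the ATF4 list from -0.28 to 1.17, and hypoxia and glycolysis are already low at 2 dyn/cm2 (-1.49 and -1.22).

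The change in orpk cells was set against that in WT cells under the same shear, which share no library with them. In WT cells 8731 genes (66.9%; 34.1% higher and 32.7% lower) passed at 30 dyn/cm2 against static, and with library totals as the scaling higher and lower went from 4455 and 4276 to 5389 and 3485. Of the 6304 genes that passed in both, 4445 changed in the same direction and 1859 in the opposite one. The difference between the 2 changes, tested as an interaction, passed in 7504 genes (57.5%; 30.6% higher in orpk and 26.9% lower). With library totals these were 3275 higher and 4382 lower, in place of 3992 and 3512.

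Sterol synthesis changed in opposite directions. In WT cells 17 of the 20 genes fell and 1, Hsd17b7, rose, with a median of -0.94, and the interaction passed with the higher change in orpk cells in all 20, with a median of 2.21. Hmgcs1 held 719, 717 and 699.7 CPM in static WT cells and 236, 251 and 241 CPM at 30 dyn/cm2. Its WT change was -1.55 ± 0.04, and the difference from orpk cells was 2.62 ± 0.05. Tm7sf2 held 49.4, 47.1 and 52.7 CPM and 24.9, 23.6 and 23.3 CPM in WT cells, a difference of 3.58 ± 0.10. Fatty acid synthesis went the same way, with 16 of 19 members lower and 0 higher in WT cells. The ATF4 list rose in both but more in orpk cells: 11 of 21 rose and 3 fell in WT cells, with a median of 0.20, and the interaction passed upwards in 19 and downwards in 0. Replication genes were split in WT cells, 10 higher and 11 lower of 30, and the interaction was higher in orpk cells in 28.

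Hypoxia and glycolysis fell in both genotypes, with 24 of 27 and 21 of 22 members lower and 0 higher in WT cells and medians of -1.95 and -1.99. The interaction passed in 23 of the 27 hypoxia genes, 11 of them higher and 12 lower in orpk cells, and in 15 of the 22 glycolysis genes, 10 higher and 5 lower. Bnip3 changed by -4.88 ± 0.07 in WT cells, and the difference from orpk cells (0.23 ± 0.13, adjusted p = 0.134, edgeR) did not pass. Vegfa held 481, 459.7 and 486 CPM in static WT cells and 64, 63.9 and 65.1 CPM at 30 dyn/cm2, a difference between the changes of 2.54 ± 0.05. Contractile genes were 7 higher and 12 lower of 30 in WT cells, and the interaction was higher in 22 and lower in 1. Ccn2 rose in WT cells as well, by 2.64 ± 0.09, which was 2.75 ± 0.15 less than in orpk cells. Interferon-stimulated genes fell in WT cells in 19 of 32 and rose in 3. Klf4 fell in WT cells by 1.26, against its rise in orpk cells (difference 2.20 ± 0.09), and Klf2 did not pass in WT cells (adjusted p = 0.799, edgeR), with a difference of -0.86 ± 0.18. Jag1 and Fgf2 also went opposite ways, with differences of 2.87 ± 0.07 and 3.72 ± 0.42.

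The named genes with the largest differences were mostly near 0 in 1 of the genotypes. Dclk1, Capn6 and Pdgfra held 619, 449.8 and 1775 CPM in static orpk cells but 0.109, 0.218 and 0.601 CPM in static WT cells, and C1qtnf3 1109 and 0.349 CPM at 30 dyn/cm2. In the other sense Aldoc, Cdkl1, Rassf6, Cys1 and Pdzk1ip1 were higher in WT cells: Aldoc, a brain aldolase induced by hypoxia, held 255 CPM in static WT cells and 0.633 CPM in static orpk cells. Vldlr was made by both. It went from 212 to 11.7 CPM in WT cells and from 58 to 46 CPM in orpk cells, a difference of 3.83 ± 0.09. For a gene near 0 in either genotype, the difference rests on few reads there.

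**Figure D5:**
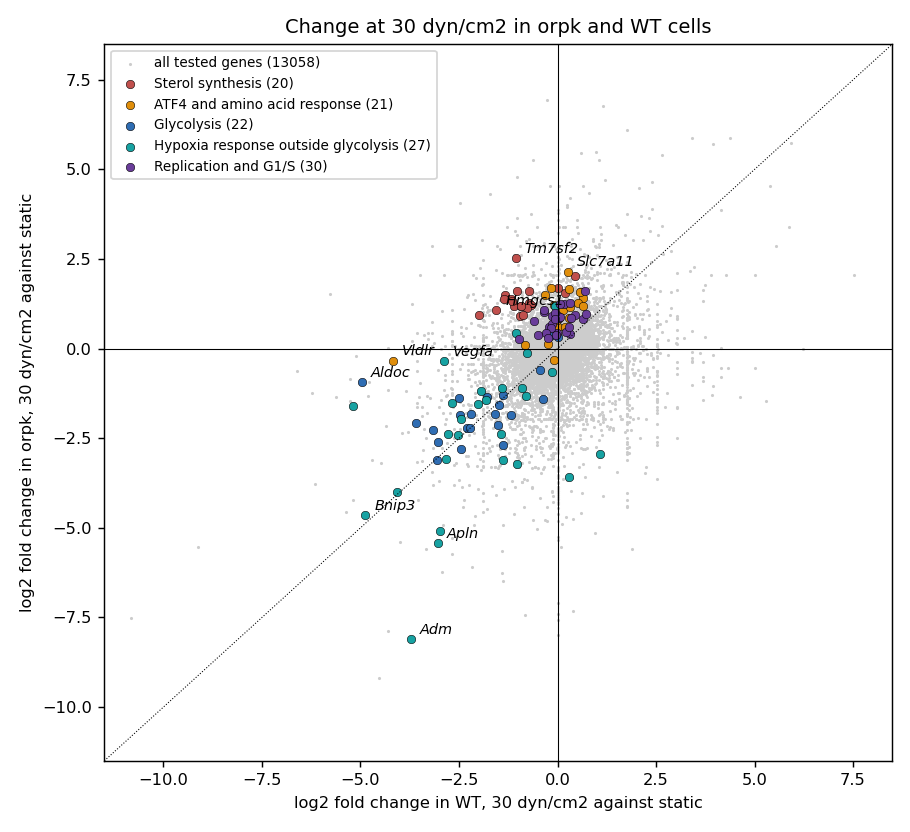
Log2 fold change at 30 dyn/cm2 against static in WT cells (horizontal) and orpk cells (vertical) for all tested genes, with 5 lists in colour and a dotted line of equal change. Sterol synthesis genes lie at the upper left (17 of 20 lower in WT, all higher in orpk), hypoxia and glycolysis genes at the lower left in both.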

How the data were processed

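RNA was read as single-end 50 nt reads from stranded mRNA libraries, per the labels' protocols. The deposited values are raw counts per gene, made by the authors with CASAVA 1.8.2, STAR 2.4 and featureCounts 1.4.6 on GRCm38, per the submitters' processing notes. The strand setting and the treatment of multi-mapping reads are not given in the sources used here, so overlapping genes and genes with near-identical copies (ribosomal proteins among them) are uncertain. From those counts, edgeR 4.0.16 (R 4.3.3, limma 3.58.1) fitted 6 group means to all 18 libraries after filterByExpr, with TMM scaling and the robust quasi-likelihood test. The adjusted p-values are Benjamini-Hochberg over all tested genes, and the SE is the size of the log2 fold change over the square root of F. Libraries of a group varied by 3.28% beyond counting error (common biological coefficient of variation), on 12 residual degrees of freedom. The fit was tested on simulated data in which few genes changed. How the scaling acts when most genes change was not tested there. Alternatives were DESeq2 1.42.0, RLE and library-total scaling, no filter, only the groups compared, the replicate block and each replicate left out. Members and 49 gene lists were chosen with earlier results of these data known. Named by rule were Ift88, Klf2, Klf4, Nos3, Edn1, Vcam1, Acta2 and Pecam1, the 12 highest and 12 lowest genes with a mean of at least 5 CPM and no overlap between groups, the 8 highest and 8 lowest of the interaction, the 6 and 6 of 30 against 2 dyn/cm2, and up to 6 a list. Other members were chosen for their role after their values were seen. Some genes that the rule names are not reported here. Gene locations are from the GENCODE annotation on GRCm38.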

Additional observations from a re-analysis of the deposited data

Results flagged for a closer look

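The log2 fold change at 30 dyn/cm2 against static differed between orpk and WT cells by the interaction test in 7504 genes, and 27 of the named genes were among them. Each value below is the change in orpk cells minus that in WT cells.

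Some of these genes were expressed in orpk and under 3 CPM in WT cells at both shears. For C1qtnf3 the difference was 5.83, with WT levels of 0.690 and 0.349 CPM. Acta1 differed by 4.48 and Fgf2 by 3.72. Spon2, a matrix protein, differed by -5.79: it went from 42.5 to 2.62 CPM in orpk cells and held 0.383 and 1.33 CPM in WT cells. Dclk1 differed by -4.58, Pdgfra by -4.27, Igfbp4 by -4.15, Capn6 by -4.04, Ndrg2 by -3.44, Gbp2 by -3.52 and Abca1 by -3.25.

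Others were near 0 in orpk cells and fell in WT cells. Cdkl1 differed by 4.95, Rassf6 by 4.23, Cys1, a cilium-associated protein, by 4.05, Aldoc by 4.02 and Pdzk1ip1 by 3.79. Cys1 held 0.139 and 0.569 CPM in static and sheared orpk cells and 31.3 and 7.47 CPM in WT cells.

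The remaining genes were expressed in both. Ccl5 differed by -5.03, Vldlr by 3.83, Tm7sf2 by 3.58, Jag1 by 2.87, Ccn2 by 2.75, Hmgcs1 by 2.62, Vegfa by 2.54, Klf4 by 2.20, Edn1 by 2.01, Slc7a11 by 1.90 and Klf2 by -0.86. Groups of 3 libraries are too small for the outlier check.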

How the results depend on the processing

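The count of 9123 genes moved by less than 1.5 times under every alternative run, and no named gene reversed its direction. With each replicate of either group left out, 8718 to 8784 genes passed, between 4561 and 4625 higher and 4152 and 4194 lower. With the replicate block 9117 passed. Same-numbered libraries deviated together only weakly (correlations of 0.088, 0.047 and 0.044, beside -0.066 to 0.020 between different numbers). Every sample correlated best with its own number, a hint from the data and not the design. Higher against lower calls were 4178 and 4510 with DESeq2 and 4626 and 4450 with library totals. Of 287 named genes or members, Cdh5 lost its call with DESeq2 (0.86, adjusted p = 0.132) and without each of 4 libraries, Notum without static replicate 1, and Rpl11 and Ccl20 without replicate 1 at 30 dyn/cm2. Nos3 gained a call there. Cilium genes counted as higher went from 9 to 5 with DESeq2, and chaperones counted as lower from 2 to 4 with RLE or DESeq2; the cause was not tested. Some list medians of 30 dyn/cm2 against static lay near 0 and turned sign under an alternative. These were the lists of Hippo kinases and TEAD factors, immediate early genes, sterol regulation, integrins and PPAR targets, and no others. Without replicate 2 at 2 dyn/cm2, medians at 2 dyn/cm2 against static turned sign in YAP/TAZ targets (0.02 to -0.01), laminar shear genes and leukocyte markers. Those of 30 against 2 dyn/cm2 turned in NF-kB genes (-0.18 to 0.03) and epithelial markers (-0.27 to 0.29). With only the compared groups, 13 of the 287 were not tested. Genes under about 1 CPM rest on few reads.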

Other observations

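Ribosomal protein genes were mostly lower at 30 dyn/cm2 than in static orpk cells, with 15 of 26 lower and 2 higher and a median of -0.16. Of 19 p53 targets 9 rose and 6 fell, and of 19 immediate early genes 7 rose and 7 fell, with medians of 0.05 and 0.09. These medians were near that of all genes and moved with the processing: the first was 0.01 with RLE or DESeq2, and the second was -0.01 with only the groups compared. In WT cells the same lists had 15 higher and 1 lower, and 14 higher and 2 lower. Feedback inhibitors of ERK signalling were 9 higher and 4 lower of 14, with a median of 0.43. Of 21 NF-kB targets and chemokines, 9 rose and 8 fell, and of 25 lysosomal genes 8 rose and 11 fell (background 36.5% higher and 33.3% lower). The purine surface enzymes and coagulation genes were 3 higher and 10 lower of 14, with a median of -0.55.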
